A study of Homo sapiens with 9 samples.

Results

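Protocadherins are cadherin-related adhesion receptors of the nervous system, and their probes were followed here in NT2 cells, which are human embryonal carcinoma cells that take a neuronal course under retinoic acid. The members were all probes whose gene name in the array annotation starts with PCDH, apart from genes on chromosomes X and Y. They numbered 75 probes of 60 genes among the 42405 probes of the array, and the chromosome limit left out 7 further probes of 3 genes. The clustered genes of chromosome 5 held 58 probes of 50 genes, with 16 probes in the alpha cluster, 19 in the beta cluster and 23 in the gamma cluster. The remaining 17 probes measured 10 protocadherin genes outside these clusters.

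All cultures were hNT2 cells that received 10 μM retinoic acid for 4 days (96 h), so the controls carried the differentiation stimulus too. Control cultures had no organophosphate, the paraoxon cultures had 1 μM paraoxon, the active derivative of the insecticide parathion and an inhibitor of acetylcholinesterase, and the mipafox cultures had 5 μM mipafox, an organophosphate that also inhibits neuropathy target esterase. RNA of each treatment was hybridized to 3 one-colour arrays, named A, B and C. The labels call these arrays biological replicates whereas the study's methods call them technical replicates, so that p-values measure the spread between these arrays only. Of the slides, the one called slide 1 carried every control array together with mipafox A, while paraoxon A, B and C lay on slide 2 with mipafox B and C. Control and paraoxon thus had no slide in common.

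The 75th percentile of the processed signal over the 58717 non-control spots of an array ran from 802.1 to 1589.6. A level is given below as the log2 processed signal of a probe minus that percentile of its array, so that a level of 0 lies at the percentile. Levels of different probes depend on the probe sequence and were not set against each other. A probe was counted as present on an array where the scanner software marked it well above background, which held for 65.7% to 73.6% of all probes per array. The line's label was checked against marker genes: 9 of 9 pluripotency genes measured, POU5F1, NANOG and SOX2 among them, were present on all 9 arrays, as were 7 of 8 retinoic acid response genes, 5 of 7 neural progenitor genes and 4 of 6 neuron genes. The epithelial keratins and EPCAM, which embryonal carcinoma cells express, were also present on all arrays (3 of 3 genes). Of 5 glial genes, MBP and S100B were on all arrays and GFAP and SOX10 on none. Of 5 mesoderm and endoderm genes only GATA6 was on all. The fibroblast list had 3 of 5 genes on all arrays, and its median level ran from -0.18 to -0.03 in control, -0.21 to 0.15 with paraoxon and -0.44 to 0.36 with mipafox. The blood gene PTPRC lay between -6.22 and -5.75 in control, between -4.92 and -4.68 with paraoxon and between -5.80 and -5.14 with mipafox, and its part in the results was not tested. The cultures were measured in bulk, where fewer cells of a type and less RNA per cell cannot be told apart.

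The clustered protocadherins give neurons a surface identity. Each variable exon of the alpha and gamma clusters has its own promoter and encodes a whole extracellular part with its cadherin repeats, and it is spliced to constant exons shared by the cluster, which encode the common cytoplasmic tail, whereas the beta genes are single exons without a shared tail. A neuron uses a small set of these promoters, chosen largely at random, while the C-type exons at the end of the alpha and gamma clusters are used more regularly. The proteins bind copies of themselves across cells, which serves the self-avoidance of neurites and the survival of interneurons. The zinc finger protein CTCF and cohesin bind at many of the variable promoters, and DNA methylation silences those not in use. The non-clustered genes encode adhesion proteins expressed in restricted regions of the embryo and brain.

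The promoters of the alpha and beta genes carried near-identical words, shown here beside the presence of the genes that share them. Promoters (250 bases before to 50 after the start, RefSeq, GRCh38.p14) were matched for 48 of the 60 genes, 40 of them clustered. The words were chosen as those most shared by the clustered promoters, searched on both strands, so their enrichment is a description. Capitals mark the word. The word CATGATGTCGCT, or its reverse complement AGCGACATCATG, stood in 8 of the 40 clustered promoters, all of the alpha cluster, and in no other of the 35116 promoters (0.0228% of all). Its copies lay 46 to 89 bases before the start. The stretches below are examples from these 8 promoters. The first pair belongs to genes present on no array and the second pair to genes present on all 9 arrays. In PCDHA5 and PCDHA12, also present on all 9 arrays, the bases after the word differ from those of the second pair.
PCDHA1, chr5:140786079-140786120, plus strand: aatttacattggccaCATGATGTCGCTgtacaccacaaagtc
PCDHA2, chr5:140794774-140794815, plus strand: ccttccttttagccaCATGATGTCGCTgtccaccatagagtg
PCDHA4, chr5:140806972-140807013, plus strand: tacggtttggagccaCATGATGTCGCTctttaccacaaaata
PCDHA7, chr5:140834165-140834206, plus strand: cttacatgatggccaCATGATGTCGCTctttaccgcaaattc
Of the 8 genes with this word, PCDHA4, PCDHA5, PCDHA7 and PCDHA12 were present on all 9 arrays and PCDHA1, PCDHA2, PCDHA6 and PCDHA8 on none, so that the word stood equally before present and absent genes.

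The word GTGGCGCTGCAG, or its reverse complement CTGCAGCGCCAC, stood in 10 clustered promoters (25% of the 40), all of the beta cluster, and in 15 of all promoters (0.0427%). It began 1 to 83 bases before the start, and the copy of PCDHB8 ran past the start. Of these 10 genes, 8 were present on all arrays, PCDHB4 on 6 arrays and PCDHB12 on none.
PCDHB2, present on all arrays, chr5:141094541-141094582, plus strand: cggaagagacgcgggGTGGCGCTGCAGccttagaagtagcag
PCDHB5, present on all arrays, chr5:141135176-141135217, plus strand: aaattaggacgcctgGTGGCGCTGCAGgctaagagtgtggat
PCDHB13, present on all arrays, chr5:141213862-141213903, plus strand: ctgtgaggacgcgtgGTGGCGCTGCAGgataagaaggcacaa
PCDHB12, present on no array, chr5:141208640-141208681, plus strand: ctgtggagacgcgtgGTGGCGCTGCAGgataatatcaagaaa
Both words contain the letters CGCT, the core of the element known as the CGCT box. Those letters alone, or AGCG on the other strand, stood in 39 of the 40 clustered promoters (97.5%) and in 70.0% of all promoters. The median GC content of the promoters was 37.3% in the alpha cluster, 39.7% in the beta cluster and 45.2% in the gamma cluster, against 56.8% for the other protocadherins and 58.7% for all promoters.

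A part of the repertoire was detected and it was the same part on most arrays. Of the 75 protocadherin probes, 29 (38.7%) were well above background on all 9 arrays, 30 (40%) on none and 16 on some. Over all 42405 probes the shares were 62.1% on all arrays and 22.7% on none. The number of protocadherin probes present per array was 39, 43 and 39 in control A, B and C, 37, 38 and 32 with paraoxon, and 34, 38 and 34 with mipafox. Paraoxon C and mipafox A, which had 32 and 34, were also the arrays with the lowest shares of all probes above background (65.7% and 66.0%), and the part of overall signal in these counts was not tested.

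In the alpha cluster, the variable-exon probes of PCDHA4, PCDHA5, PCDHA7, PCDHA12 and the C-type PCDHAC2 were present on all arrays, 5 of 15 genes. Probes of the alpha and gamma clusters were placed on variable or constant exons by their position alone. For PCDHA11 and PCDHGA8 the variable-exon and constant-exon probes are annotated to different transcripts. Whether a variable-exon probe misses other transcripts of its gene was not tested. PCDHA1, PCDHA2, PCDHA6, PCDHA8, PCDHA9 and PCDHA10 were present on none. In between, PCDHAC1 was present on 7 arrays, PCDHA13 on 6, PCDHA11 on 2 and PCDHA3 on 1. PCDHA7 (chr5:140216279-140216338, hg19) held a level of -2.15, -2.52 and -2.47 in control, -2.15, -2.29 and -2.10 with paraoxon and -2.51, -2.04 and -2.33 with mipafox. PCDHA4 (chr5:140189110-140189169, hg19) held -2.79, -3.16 and -2.91 in control, -3.31, -3.15 and -3.51 with paraoxon and -2.96, -3.42 and -3.10 with mipafox. Both genes stayed within a narrow band on all arrays, and the treatments overlapped for each.

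The beta cluster had the largest present share among the clusters, 10 of 18 genes on all arrays: PCDHB2, PCDHB5, PCDHB8, PCDHB9, PCDHB10, PCDHB11, PCDHB13, PCDHB14, PCDHB15 and PCDHB16. The alpha and gamma shares rest on variable-exon probes, and whether these miss other transcripts of their genes was not tested. The shares of the clusters may therefore not be comparable. PCDHB1, PCDHB6, PCDHB7, PCDHB12, PCDHB17 and PCDHB19P were present on none. PCDHB17 and PCDHB19P are pseudogenes, as is PCDHB18, which was present on 1 array. PCDHB5 (chr5:140517455-140517514, hg19) had levels of 0.87, 0.99 and 0.84 in control, 0.86, 0.65 and 1.20 with paraoxon and 1.01, 1.12 and 0.75 with mipafox. PCDHB11 (chr5:140581576-140581635, hg19) had 0.31, 0.05 and 0.14 in control, 0.17, 0.19 and 0.13 with paraoxon and 0.15, 0.29 and 0.34 with mipafox. These beta probes lay above the 75th percentile of every array.

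In the gamma cluster only 4 of 17 genes, PCDHGA2, PCDHGA7, PCDHGA12 and PCDHGB4, had a variable-exon probe present on all arrays. PCDHGA5, PCDHGA8, PCDHGA9, PCDHGB2, PCDHGB3, the pseudogene PCDHGB8P and the C-type PCDHGC3 were present on none. The other gamma genes were intermediate, with PCDHGB6 and PCDHGC5 on 8 arrays, PCDHGA3 and PCDHGB7 on 7, PCDHGC4 on 4 and PCDHGB1 on 2. Of the C-type exons in both clusters, PCDHAC2 was therefore the one present on every array and PCDHGC3 the one present on none.

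Of the 10 other protocadherin genes, PCDH1, PCDH7, PCDH8, PCDH17 and PCDH20 were present on all arrays and PCDH18 on 8. PCDH9, PCDH10, PCDH12, an endothelial adhesion protein, and PCDH15, which forms the tip links of inner ear hair cells, were on no array with any of their 9 probes.

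**Figure D1:**
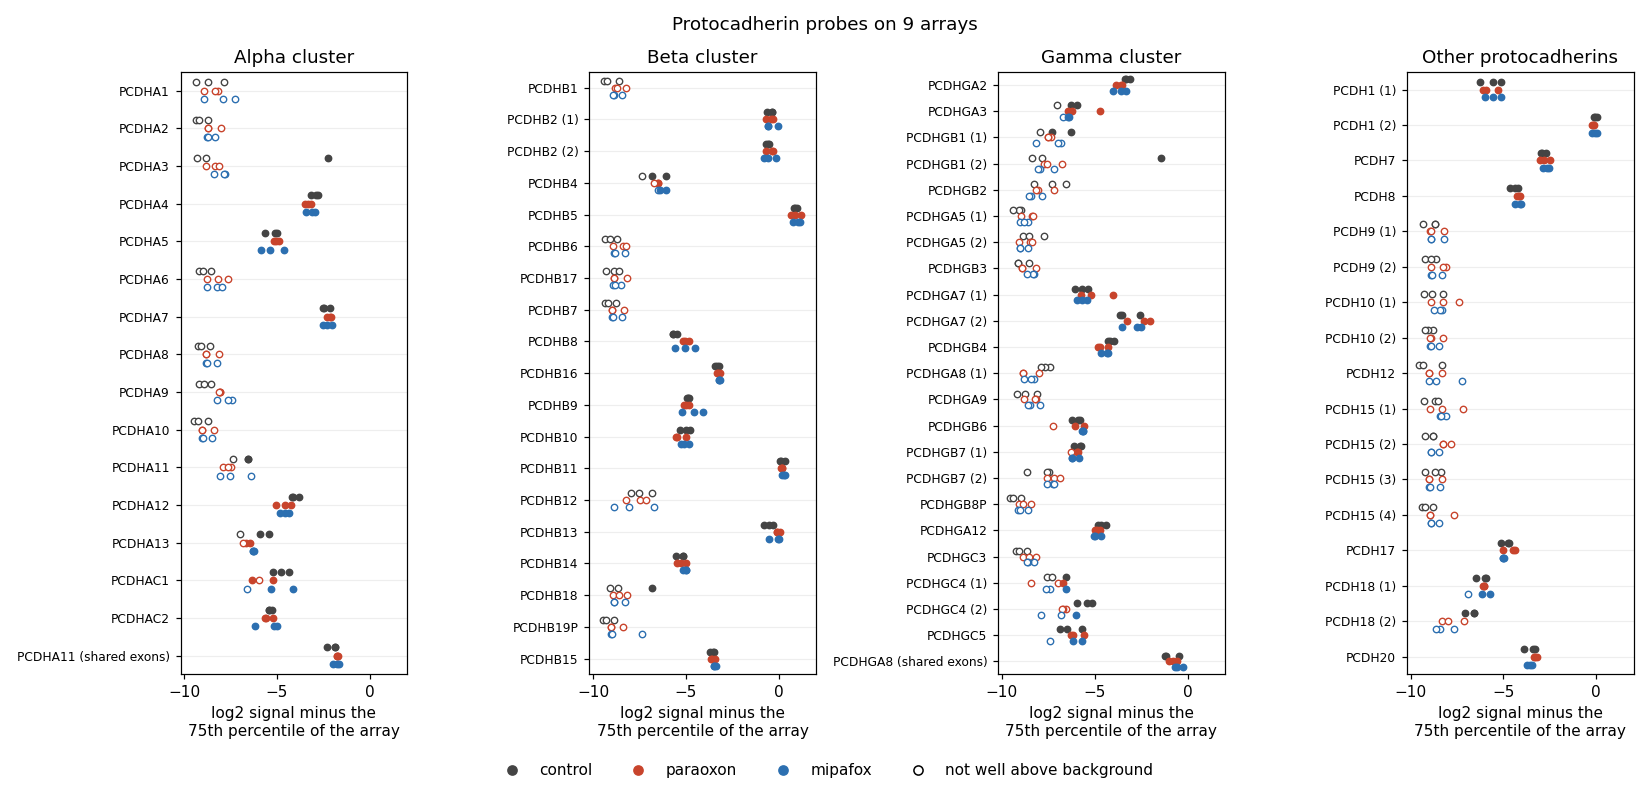
Normalized log2 signal (x axis, log2 signal minus the 75th percentile of the array) of each of the 75 protocadherin probes on 9 arrays, with one row per probe in chromosomal order, numbers in brackets for genes with several probes, and colours for control, paraoxon and mipafox. Filled points are well above background and open points are not, and 29 rows are filled throughout and 30 are open throughout.

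Probes that lie past the last variable exon of a cluster read the constant exons, which transcripts of all the alpha or all the gamma genes share. The alpha probe, annotated as PCDHA11 (chr5:140390896-140390955, hg19), was present on all arrays, at -2.31, -1.91 and -1.87 in control, -1.79, -1.72 and -1.77 with paraoxon and -2.01, -1.78 and -1.69 with mipafox. The other probe of PCDHA11 (chr5:140251062-140251121, hg19), on its variable exon, was present on 2 control arrays only. The gamma probe, annotated as PCDHGA8 (chr5:140892394-140892453, hg19), was present on all arrays at -0.47, -1.23 and -1.14 in control, -0.79, -0.99 and -0.55 with paraoxon and -0.66, -0.23 and -0.55 with mipafox, whereas the probe on the variable exon of PCDHGA8 was present on none. The gene names of these 2 probes thus do not say which variable exon was measured. The constant-exon probes were not called: the alpha probe differed by 0.27 ± 0.16 (log2, SE) with paraoxon and 0.20 ± 0.16 with mipafox, and the gamma probe by 0.17 ± 0.23 and 0.47 ± 0.23. All paraoxon arrays lay above all control arrays for the alpha probe, and the mipafox value of the gamma probe was 0.87 with array weights and 0.71 without control A. The adjusted p from limma was 0.524 and 0.885 for the alpha probe and 0.823 and 0.765 for the gamma probe.

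For 3 probes 1 array alone was present, and each time it was control B. PCDHA3 (A_33_P3332521) had a level of -2.28 on control B, and the next array stood at -7.80. A probe of PCDHGB1 (A_23_P310972) had -1.42 on control B and at most -6.78 elsewhere, while the neighbouring PCDHGB1 probe (A_33_P3417611) stood at -7.29 on that same array. PCDHB18 had -6.82 on control B and at most -8.18 elsewhere. Each of these probes had 1 spot per array, so the height of that spot has no second reading on the array, and none of the 3 entered the tests.

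Near-identical genes can share signal through their probes. Of 2757 pairs of probes of different protocadherin genes, 3 shared a run of at least 20 bases and 5 were identical at 40 or more of 60 positions. The run AATGAGTTCAAGTTCCTGAAGCC of 23 bases was shared by the probes of PCDHB2 and PCDHB13, which were identical at 48 positions, and ATCAGCCAGGAGAGCTGTGAGAAA of 24 bases by those of PCDHGA2 and PCDHGA3. The longest run, 32 bases, was shared by PCDHGA3, present on 7 arrays, and PCDHGA5, present on none. PCDHB8 and PCDHB11 were identical at 46 positions, PCDHB9 and PCDHB16 at 43, PCDHB2 and PCDHB15 at 41 and PCDHB13 and PCDHB15 at 40. The values of these genes are uncertain to the extent that their transcripts bind each other's probes, which was not tested.

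The paraoxon and control arrays were compared to ask whether the exposure altered these genes during early differentiation. No protocadherin probe was called in limma, where a call needed a log2 fold change beyond 1 together with an adjusted p under 0.05. Of the 75 probes, 36 (33 genes) were present throughout at least 1 treatment and were tested, and 0 of them were called, as were 0.0% of the 29134 probes tested. The smallest adjusted p among the members was 0.254. With paraoxon 21 members were higher and 15 lower, their median log2 fold change was 0.03 against 0.01 for all tested probes, and 29 of the 36 lay within 0.5 of no change. The alpha cluster had a median of -0.12 (7 probes), the beta cluster 0.02 (11 probes), the gamma cluster -0.18 (11 probes) and the other protocadherins 0.09 (7 probes).

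At an unadjusted p under 0.05 in limma, 2 members were higher with paraoxon, PCDHB8 and PCDHB13, where 7.31% of all tested probes were higher. At the same limit 3 members were lower, PCDHA12, PCDHGB4 and PCDHGC4, where 6.02% of all were lower. These counts, 2 and 3 of 36, stood near the shares over all probes.

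PCDHGC4, the C-type gamma isoform needed for the survival of interneurons, had the largest difference of the 36 tested probes. Its probe (A_23_P303101, chr5:140867286-140867345, hg19) stood at -5.16, -5.42 and -5.94 in control, at -6.54, -6.73 and -6.78 with paraoxon and at -5.98, -6.83 and -7.87 with mipafox. All control arrays lay above all exposed arrays. The probe was well above background on the 3 control arrays, on no paraoxon array and on mipafox A only, and it entered the test through the control arrays alone. The log2 fold change with paraoxon was -1.18 ± 0.41 (SE) in limma with an adjusted p of 0.254, which is 2.26-fold lower. Setting the paraoxon signals to no less than the lowest signal that counted as above background left this difference unchanged. The 2.26-fold is therefore the measured estimate and not a lower bound. It was the one member with an unadjusted p under 0.05 (0.0177 in limma) beyond the fold limit, where 0.738% of all tested probes were lower by that rule and 1.45% higher. Under 20 alternative settings its adjusted p with paraoxon ran from 0.015 to 0.911 in limma. The low end came from weighting each array by its estimated quality, which gave -1.04 and called 2.3% of all tested probes. The fold change shrank to -0.23 with the normexp background correction and to -0.33 with the deposited processed values. A second probe of PCDHGC4 (A_33_P3422301, chr5:140866830-140866889, hg19) was above background on 3 arrays and was not tested. It stood at -6.52, -7.57 and -7.28 in control, -6.99, -6.72 and -8.43 with paraoxon and -7.41, -6.57 and -7.60 with mipafox, and its treatments overlapped.

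PCDHAC1, a C-type alpha isoform, came next among the tested probes that were lower. Its probe was well above background on 3 control, 2 paraoxon and 2 mipafox arrays. It entered the test through the control arrays alone, so the filter favoured a lower value with the exposures. It stood at -4.36, -4.79 and -5.24 in control, -5.23, -6.36 and -5.95 with paraoxon and -4.13, -5.33 and -6.60 with mipafox (A_24_P191931, chr5:140308286-140308345, hg19). The lowest control array and the highest paraoxon array lay at -5.24 and -5.23, and the mipafox arrays spanned the range of both. The log2 fold change with paraoxon was -1.05 ± 0.56 (SE, limma adjusted p 0.468), and it was -0.22 with the normexp background correction, -0.33 with the deposited processed values, -0.58 with array weights and -0.60 with slide as a random block.

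PCDHA12 (A_33_P3329274, chr5:140257377-140257436, hg19), one of the alpha genes present throughout, stood at -3.83, -4.18 and -4.17 in control, -4.55, -5.04 and -4.27 with paraoxon and -4.38, -4.57 and -4.86 with mipafox. Every exposed array lay under every control array. The log2 fold change was -0.56 ± 0.22 (SE) with paraoxon, with an adjusted p of 0.318 in limma. It was -0.22 with slide as a block, -0.24 with normexp, -0.29 with the deposited values and -0.35 without paraoxon B, the lowest array. PCDHGB4 (A_23_P359588, chr5:140769762-140769821, hg19) had -4.19, -3.96 and -4.27 in control and -4.73, -4.84 and -4.29 with paraoxon, a difference of -0.48 ± 0.19 (SE, limma adjusted p 0.305). PCDHGA2 (A_23_P422044) also had its paraoxon arrays under its control arrays, by -0.41 ± 0.19.

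On the higher side, PCDHB8 (A_23_P41599, chr5:140559850-140559909, hg19) stood at -5.67, -5.48 and -5.70 in control, -5.07, -5.14 and -4.83 with paraoxon and -5.56, -4.53 and -5.06 with mipafox. Control and paraoxon did not overlap, and mipafox A, on the control slide, lay among the control values. The log2 fold change with paraoxon was 0.60 ± 0.24 (SE, limma adjusted p 0.319), and it was 0.21 with normexp and 0.15 with the deposited values. PCDHB13 (A_23_P144627, chr5:140595978-140596037, hg19) stood at -0.31, -0.77 and -0.53 in control, -0.11, -0.12 and 0.08 with paraoxon and -0.55, 0.00 and -0.02 with mipafox. It showed the same arrangement, with mipafox A among the control arrays, and differed by 0.49 ± 0.19 with paraoxon (limma adjusted p 0.310).

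The largest positive fold changes with paraoxon were in gamma A-type genes and rested on 1 or 2 arrays. PCDHGA7 had 2 probes. The first (A_24_P308851, chr5:140764098-140764157, hg19) stood at -5.34, -5.70 and -6.05 in control and -5.71, -5.22 and -4.03 with paraoxon, 0.71 ± 0.39 (SE, limma adjusted p 0.481). The second (A_23_P435444, chr5:140764880-140764939, hg19) stood at -2.56, -3.51 and -3.61 in control and -2.32, -3.26 and -2.04 with paraoxon, 0.69 ± 0.40 (adjusted p 0.517). Paraoxon C was the highest array for both probes, and control overlapped paraoxon. Without paraoxon C the differences were 0.23 and 0.44. PCDHGA3 (A_24_P334529, chr5:140725938-140725997, hg19) had -6.26, -5.96 and -7.03 in control and -6.22, -6.45 and -4.72 with paraoxon. Its difference of 0.62 ± 0.43 was 0.08 in the fit without paraoxon C, the array that stood apart. The PCDHGA3 probe was well above background on 3 paraoxon, 2 control and 2 mipafox arrays. It entered the test through the paraoxon arrays alone, so the filter favoured a higher value with paraoxon.

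By the position of the arrays alone, 3 of the 36 tested members had all paraoxon arrays above all control arrays (the constant-exon alpha probe, PCDHB8 and PCDHB13), where 12.4% of all tested probes did. In the other direction 4 tested members did (PCDHA12, PCDHGA2, PCDHGB4 and PCDHGC4), where 11.1% of all tested probes did. PCDHGC4 passed the filter through its control arrays only, which favoured lower values with the exposures. The probes of PCDHAC1 and PCDHGB7 that were tested also passed through control only, and their control and paraoxon arrays overlapped.

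**Figure D2:**
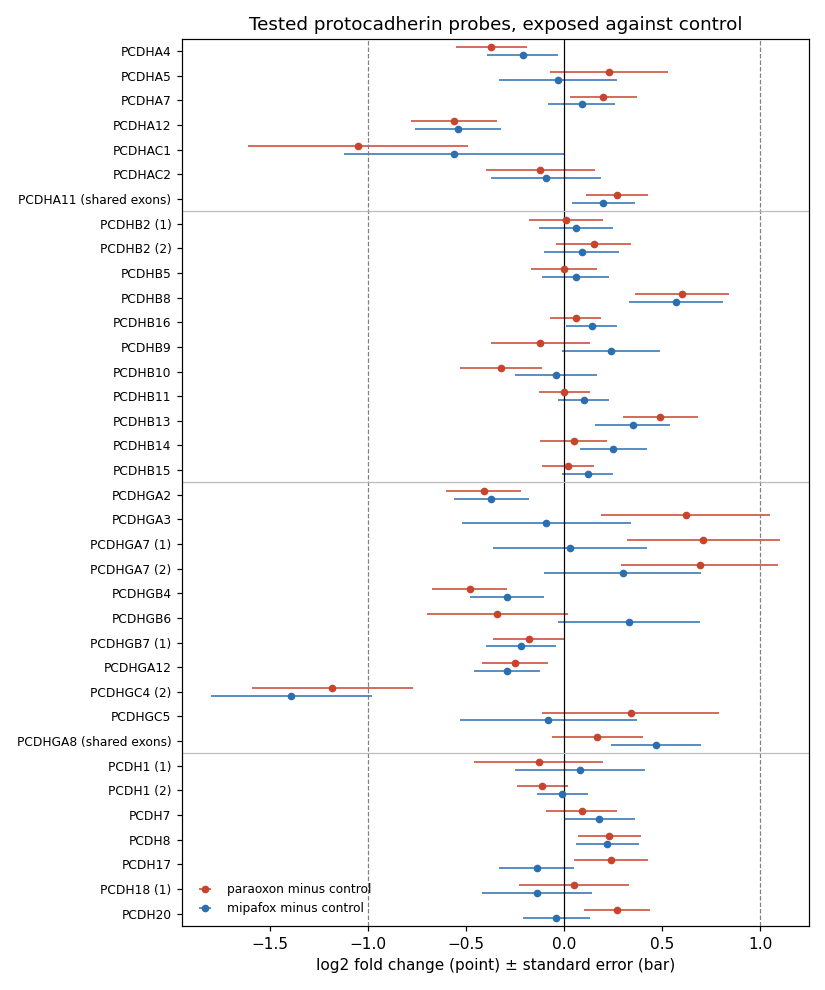
Log2 fold change (x axis) of the 36 tested protocadherin probes for paraoxon minus control and mipafox minus control, with points for the limma estimate, bars for its standard error and grey dashed lines at the fold limit of 1 in either direction. Apart from PCDHGC4 and, with paraoxon, PCDHAC1, the points lie between the dashed lines.

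Mipafox was set against control in the same way. No member was called in limma (0 of 36, where 0.0% of all tested probes were called), and the smallest adjusted p was 0.487. With mipafox 19 members were higher and 17 lower, with a median log2 fold change of 0.04 (0.00 for all tested probes), and 32 of the 36 lay within 0.5 of no change. In the beta cluster 10 of 11 tested probes were higher with mipafox, with a median of 0.12, and 8 of 11 with paraoxon, where 14614 and 15118 of all 29134 tested probes were higher. The highest with mipafox was PCDHB8 at 0.57 ± 0.24 (SE, limma adjusted p 0.697). The medians were -0.09 in the alpha cluster, -0.09 in the gamma cluster and -0.01 in the other protocadherins.

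At an unadjusted p under 0.05 in limma, 1 member was higher with mipafox, PCDHB8, where 2.96% of all tested probes were. Lower by that rule were 2 members, PCDHA12 at -0.54 ± 0.22 (adjusted p 0.685) and PCDHGC4 at -1.39 ± 0.41 (adjusted p 0.487), where 4.0% of all were. PCDHGC4 was again the one tested member beyond the fold limit, where 0.577% of all tested probes were lower by that rule and 0.268% higher. It was above background on 1 of the 3 mipafox arrays and on every control array, so the filter favoured a lower value, and the fold change rests in part on signals not above background. Its adjusted p over 20 alternative settings ran from 0.00979, with array weights that called 2.75% of all tested probes, to 1.0. Its fold change was -0.90 without mipafox C, the lowest of the 3 mipafox arrays, -0.11 with the normexp background correction and -0.31 with the deposited processed values. The gamma constant-exon probe, at 0.47, and PCDHB13, at 0.35 ± 0.19, were the next highest after PCDHB8. PCDHAC1 stood at -0.56 ± 0.56 and PCDHGA2 at -0.37 ± 0.19.

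All mipafox arrays lay above all control arrays for 1 of the 36 tested members, PCDHGB6, where 5.34% of all tested probes did. They lay below for 3 tested members, PCDHA12, PCDHGB4 and PCDHGC4, where 6.46% of all did. Both exposures were compared with the same 3 control arrays, so the members they have in common (PCDHA12, PCDHGB4 and PCDHGC4) share those controls.

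**Figure D3:**
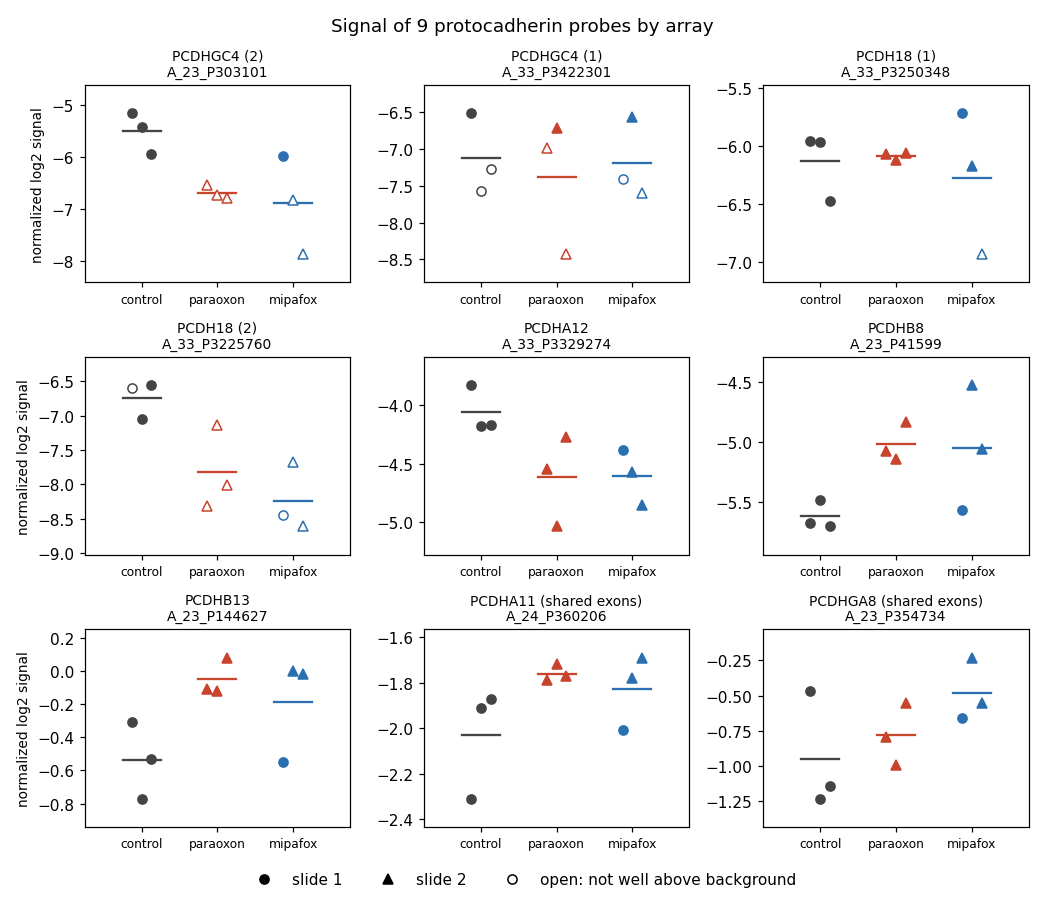
Normalized log2 signal (y axis, log2 signal minus the 75th percentile of the array) of 9 protocadherin probes by treatment, with one point per array, circles for slide 1, triangles for slide 2, open symbols where the probe was not well above background and horizontal lines at the mean of 3 arrays. The y axes differ between panels. For PCDHGC4 (A_23_P303101), PCDH18 (A_33_P3225760) and PCDHA12 all control points lie above the others. For PCDHB8 and PCDHB13 the mipafox circle lies with the control circles.

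The doses of the compounds differed, 1 μM and 5 μM, so the values of paraoxon and mipafox stand side by side and their difference is one between these exposures. No member was called between them in limma, the smallest adjusted p was 0.998, 0 members had an unadjusted p under 0.05 (2.87% of all tested probes were higher and 1.15% lower with paraoxon by that rule), and the differences ran from -0.66 to 0.71 on the log2 scale. None lay beyond the fold limit at that p in limma, where 0.227% of all tested probes were higher and 0.0275% lower. PCDH20 was the 1 tested member with all paraoxon arrays above all mipafox arrays, where 5.12% of all tested probes lay so, and 0 members lay the other way, where 3.84% of all did.

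Because control and paraoxon shared no slide, treatment and slide cannot be told apart from those arrays alone. The mipafox arrays lay on both slides, and their differences between slides are given below for several clustered members. On slide 1 mipafox had a single array, mipafox A, whose 75th percentile of 802.1 was the lowest of the 9 arrays. Mipafox A had 66.0% of probes present. Slide and array thus cannot be told apart either, and the fits with slide rest on that array. For PCDHGC4, mipafox B and C together lay lower than mipafox A by -1.37, close to the difference between paraoxon and control. Within slide 1, mipafox A was -0.48 from control, and within slide 2 paraoxon was 0.67 above mipafox B and C. With slide as a term in the limma fit, the paraoxon fold change of PCDHGC4 became 0.19 (adjusted p 0.911) and the mipafox fold change -0.48. For PCDHAC1 mipafox B and C lay at -1.83 from mipafox A, and the paraoxon fold change in the fit with slide was 0.79. For PCDHB8 the mipafox arrays of slide 2 lay 0.77 above mipafox A and the paraoxon fold change became -0.17, and for PCDHB13 it became -0.05. Mipafox B and C differed from mipafox A by -0.34 for PCDHA12, 0.36 for PCDHGB4 and -0.46 for PCDHGA2. That difference was -0.01 and -0.30 for the PCDHGA7 probes and 0.32 for PCDHGA3.

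The same differences were taken over all tested members. The difference between the mipafox arrays of the slides had the same sign as the difference between paraoxon and control for 19 of 36 members (52.8%) and for 59.5% of the 29109 tested probes with all values. The median size of the difference between slides was 0.30 for the members and 0.30 for all probes. Within slide 1 the median size of the difference was 0.21 for members against 0.22, and within slide 2 it was 0.17 for both. PCDHGC4 and PCDHAC1, the lowest with paraoxon, also had the lowest values between the slides within mipafox.

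The protocadherins outside the clusters showed small differences. None of their 7 tested probes had an unadjusted p under 0.05 in limma with either exposure, and their fold changes ran from -0.13 to 0.27 with paraoxon and from -0.14 to 0.22 with mipafox. PCDH1, an adhesion protein best known from airway epithelium, had a probe (A_33_P3349637, chr5:141242218-141242277, hg19) at 0.02, -0.14 and -0.06 in control, -0.21, -0.18 and -0.12 with paraoxon and 0.06, -0.06 and -0.21 with mipafox. Its paraoxon difference was -0.11 ± 0.13 (SE) and its mipafox difference -0.01 ± 0.13. The other PCDH1 probe (A_24_P234838) differed by -0.13 ± 0.33 and 0.08 ± 0.33. Neither probe separated the treatments.

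PCDH20 (A_23_P204885, chr13:61984366-61984425, hg19) stood at -3.89, -3.40 and -3.32 in control, -3.30, -3.18 and -3.33 with paraoxon and -3.56, -3.72 and -3.44 with mipafox, so that 1 control array lay under all others. PCDH17, a protein of presynaptic sites (A_24_P911906, chr13:58301968-58302027, hg19), stood at -5.14, -4.71 and -4.75 in control, -4.37, -4.51 and -5.00 with paraoxon and -4.98, -5.02 and -5.04 with mipafox. The differences with paraoxon were 0.27 ± 0.17 for PCDH20 and 0.24 ± 0.19 for PCDH17, and with mipafox -0.04 ± 0.17 and -0.14 ± 0.19. Both genes kept overlapping control and exposed arrays.

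PCDH8, which takes part in the endocytosis of N-cadherin (A_23_P36985, chr13:53418205-53418264, hg19), stood between -4.66 and -4.20 in control, between -4.29 and -4.10 with paraoxon and between -4.38 and -4.06 with mipafox. Its differences were 0.23 ± 0.16 and 0.22 ± 0.16. PCDH7 (A_33_P3349646, chr4:30726159-30726218, hg19) stood between -3.0 and -2.70 in control, between -3.01 and -2.48 with paraoxon and between -2.89 and -2.57 with mipafox, with differences of 0.09 ± 0.18 and 0.18 ± 0.18. Neither gene differed beyond the spread of its arrays.

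The 2 probes of PCDH18 differed in their values. The first (A_33_P3250348, chr4:138440101-138440160, hg19) stood at -5.96, -5.97 and -6.47 in control, -6.07, -6.12 and -6.06 with paraoxon and -5.72, -6.17 and -6.93 with mipafox. It differed by 0.05 ± 0.28 and -0.14 ± 0.28. The second (A_33_P3225760, chr4:138453026-138453085, hg19) was above background on 2 control arrays and on no exposed array, and so was not tested. It stood at -6.60, -7.05 and -6.56 in control, -8.31, -7.13 and -8.01 with paraoxon and -8.44, -7.68 and -8.61 with mipafox, and all control arrays lay above the exposed ones. The exposed signals were then set to no less than the lowest signal above background of any probe on the array. By that measure it was 1.52-fold lower with paraoxon and 1.78-fold lower with mipafox. A probe can lie over that signal and still not count as above background, as PCDHGC4 (A_23_P303101) did at -6.54 on paraoxon A. These folds are therefore not lower bounds. A limma fit without the filter on dim probes gave this PCDH18 probe an adjusted p of 0.322 with paraoxon and 0.559 with mipafox.

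The genes that regulate protocadherin promoters or act with the proteins were examined next. The regulation list held 14 genes (21 probes, all tested), including CTCF, the cohesin subunits RAD21, SMC3 and STAG1, the DNA methyltransferases DNMT1, DNMT3A and DNMT3B and the silencing factors SMCHD1 and SETDB1. None was called in limma in any comparison (0.0% of all tested probes). At an unadjusted p under 0.05, 3 probes were higher and 1 lower with paraoxon, where 7.31% of all tested probes were higher and 6.02% lower. With mipafox 1 was higher and 1 lower, where the shares were 2.96% and 4.0%, and the medians were 0.06 and 0.07. The 3 higher with paraoxon, named after their values were seen where not beyond the fold limit, were probes of SMCHD1, of DNMT3A (0.42 ± 0.18, SE) and of the cohesin release factor WAPAL (0.41 ± 0.16), with limma adjusted p of 0.155, 0.360 and 0.317. The other DNMT3A probes differed by 0.05 ± 0.13 and -0.28 ± 0.33 with paraoxon, and the other WAPAL probe by 0.18 ± 0.15. CTCF differed by 0.03 ± 0.28 (SE) with paraoxon and DNMT3B, which methylates DNA de novo, by 0.06 ± 0.17.

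SMCHD1, a chromatin protein that takes part in silencing of the clusters, had 1 probe (A_24_P82630) beyond the fold limit. It stood at -4.12, -3.57 and -3.59 in control, -2.75, -2.45 and -2.82 with paraoxon and -4.19, -3.30 and -3.0 with mipafox. The paraoxon arrays lay above all others, by 1.09 ± 0.30 (SE) over control with an adjusted p of 0.155 in limma. Its other probes differed by 0.22 ± 0.32 and -0.26 ± 0.17, and mipafox B and C lay 1.04 above mipafox A on the first probe. The lower probe at the unadjusted limit measured REST, the repressor of neuronal genes outside neurons, and it was chosen for naming after its value was seen. REST stood at -1.27, -1.49 and -1.84 in control, -2.34, -2.67 and -2.16 with paraoxon and -1.79, -2.26 and -2.65 with mipafox. Its difference was -0.85 ± 0.25 with paraoxon (limma adjusted p 0.175) and -0.70 ± 0.25 with mipafox (adjusted p 0.600), and mipafox B and C lay at -0.67 from mipafox A.

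The list of signalling and processing partners held 15 genes (22 probes, all tested), among them the kinases PTK2 and PTK2B, which the cytoplasmic tails inhibit, the protease ADAM10, which sheds the extracellular part, and subunits of the WAVE complex. With paraoxon 1 of its probes was higher at an unadjusted p under 0.05 in limma and 0 were lower, where 7.31% and 6.02% of all tested probes were. With mipafox there were 0 in either direction (2.96% and 4.0% of all). That probe of PTK2B (A_33_P3273000) stood at -0.73, -0.81 and -0.90 in control, 0.38, 0.16 and 0.51 with paraoxon and -0.76, 0.40 and -0.50 with mipafox. The difference with paraoxon was 1.17 ± 0.27 (SE) with an adjusted p of 0.109 in limma, and mipafox B and C lay 0.71 above mipafox A. The other PTK2B probe (A_33_P3351536) differed by 0.10 ± 0.23.

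The other cadherins, 32 genes with 41 probes of which 30 were tested, had medians of 0.00 with paraoxon and 0.06 with mipafox. Lower at an unadjusted p under 0.05 with paraoxon were 3 probes, 2 of CDH23 and 1 of CDH15, named after their values were seen. They differed by -0.53, -0.58 and -0.42, and 0 were higher, where 6.02% of all tested probes were lower and 7.31% higher. With mipafox there were 0 in limma at that limit (4.0% lower and 2.96% higher of all). E-cadherin (CDH1) differed by 0.24 ± 0.19 (SE) with paraoxon and N-cadherin (CDH2) by -0.21 ± 0.24 and -0.13 ± 0.18 on its 2 probes.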

How the data were processed

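Total RNA of NT2 cultures was measured on one-colour Agilent arrays (3 per treatment). The authors deposited, per the file headers, the output of Agilent Feature Extraction 10.5.1.1, whose processed signal, mean signal and background are intensity values on a linear scale, with probe coordinates on hg19. A second deposited table, used here as an alternative, holds log2 values that the authors processed with a Bioconductor package for Agilent arrays, and its settings are not given in the sources used here.

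From each log2 processed signal the 75th percentile of its array was subtracted, control spots and flagged outlier spots were dropped, and the mean was taken over the spots of a probe. A probe was well above background on an array where at least 50% of its spots were. Testing took in the 29134 probes that met this on all arrays of 1 or more treatments and had 2 or more values in each. The test was limma 3.58.1 (R 4.3.3), fitting 3 treatment means to the 9 arrays, with Benjamini-Hochberg adjustment over all tested probes, and calls beyond a log2 fold change of 1 with an adjusted p under 0.05. The small number of arrays limits the precision. The folds of the second PCDH18 probe start from the mean of the brighter treatment. They set it against the higher of the dim probe's own signal and the lowest signal above background of any probe on each array.

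Samples were grouped by the treatment in the labels. Replicate letters were not used to pair arrays. The members, the gene lists and the rules were chosen with earlier results of these data known. Named with values were all other protocadherins tested, the 3 highest and 3 lowest clustered probes in each comparison with control, members past the unadjusted p and fold limits, and the constant-exon probes. Probes shown as examples of present genes, single-array highs, members past the unadjusted p alone or without overlap (PCDHGB4, PCDHGA2), and the second probes of PCDHGC4 and PCDH18 were chosen after their values were seen. Alternatives were quantile normalization, normexp correction with an offset of 50, the deposited values, other filters, a block for slide or for replicate letter, fits of 2 treatments alone, array weights, the variance model, outlier flags, thresholds and each array left out. Promoter sequences came from RefSeq (GRCh38.p14). Figures were drawn with matplotlib 3.10.9.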

Additional observations from a re-analysis of the deposited data

How the results depend on the processing

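No protocadherin was called under any alternative apart from array weights, which called 2 clustered probes for paraoxon, PCDHGA7 (A_23_P435444, 1.04, adjusted p 0.0202) and PCDHGC4 (-1.04, adjusted p 0.015), and 1 for mipafox, PCDHGC4 (-1.27, adjusted p 0.00979). The unadjusted limit with the fold limit gave 1 clustered probe in each of these comparisons. Of the values of single probes under alternatives other than leaving 1 array out, 369 kept their direction and stayed uncalled, whatever their size, and 28 changed direction. With slide as a block the paraoxon values turned to 0.79 for PCDHAC1, -0.01 for PCDHA11, -0.17 for PCDHB8, -0.05 for PCDHB13, 0.19 for PCDHGC4, -0.10 for PCDHGA8, 0.08 for PCDH1 (A_33_P3349637) and -0.19 for PCDH7. The mipafox values turned to 0.67 for PCDHAC1, -0.01 for PCDHB13, -0.36 and 0.12 for the PCDH1 probes, -0.02 for PCDH7 and 0.41 for PCDH18. With slide as a random block (consensus correlation 0.196) the mipafox values of the PCDH1 probes turned to -0.03 and 0.02. With normexp, PCDH1 (A_24_P234838) turned to 0.03 for paraoxon, and for mipafox PCDHAC1 turned to 0.01, PCDHGA3 to 0.16, PCDH17 to 0.03, PCDH18 to 0.15 and PCDH20 to 0.03. With array weights PCDH1 (A_24_P234838) turned to 0.08 and PCDH7 to -0.01 for paraoxon, and PCDH1 (A_33_P3349637) to 0.05 and PCDH8 to -0.05 for mipafox. PCDH18 turned to -0.04 for paraoxon with quantile normalization and to -0.01 with the authors' deposited values. The cause of these turns was not tested.

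The median of the other protocadherins moved, for paraoxon, to 0.24 without a filter, 0.16 with probes above background on all arrays only, 0.28 with slide as a block and 0.25 as a random block. For mipafox it moved to 0.15 with normexp and 0.19 without a filter, and for paraoxon against mipafox to -0.08 with normexp, 0.14 without a filter and 0.11 with array weights. With each array left out in turn the mipafox median ran from -0.05 to 0.07. The paraoxon values ran from -0.42 to 0.12 for PCDH1 (A_24_P234838), -0.06 to 0.21 for PCDH7 and -0.12 to 0.13 for PCDH18. The mipafox values ran from -1.17 to 0.07 for PCDHAC1, -0.40 to 0.13 for PCDHGA3, -0.15 to 0.21 for PCDHGA7 (A_24_P308851), -0.22 to 0.33 and -0.08 to 0.06 for the PCDH1 probes, -0.42 to 0.19 for PCDH18 and -0.21 to 0.07 for PCDH20.

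The replicate letters did not pair the arrays: over 9 pairs of arrays with the same letter, the correlation of deviations from the treatment means ran from -0.598 to 0.567, with 5 over 0.1. With the letter as a replicate block, the count of called protocadherins stayed 0 and PCDHGC4 had an adjusted p of 0.162 for paraoxon. Signal over background limits the dim probes: 39 of the 75 members were not tested in the main fit, and only levels are given for them apart from a PCDH18 probe.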
